A study of Mus musculus with 15 samples.

Results

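Glycolytic enzymes and their isoforms were followed across healthy and fibrotic mouse lungs and kidneys. The set was a list of 9 genes of the pathway: Hk1, Hk2, Pfkl, Pfkp, Aldoa, Pgk1, Pgam1, Eno1 and Ldha. Of these, 7 had probes that the array annotation names for them, 14 probes in all, and Hk2 and Eno1 are not analysed here. A probe was used when its detection p, the chance of such a signal from background, was under 0.01 in at least 2 samples, which left 12 probes, and the 7 genes stood among 11648 genes tested. The filter left out 1 probe of Pfkp and 1 of Pgk1, which passed in 0 samples, and the least often detected of the probes kept, a dim probe of Pfkl, passed in 2.

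Total RNA of whole organs of BALB/c mice, an inbred laboratory strain, was measured on Illumina expression arrays, which report the brightness of a probe and not a molecule count. The 5 groups were untreated lung (n = 3), lung scarred by bleomycin, a drug that injures the lung, given through the trachea (n = 3), lung of mice whose kidney was scarred by unilateral ureteral obstruction (UUO, surgery that blocks the outflow of a kidney; n = 3), untreated kidney (n = 3) and the UUO kidney (n = 2). The labels give no dose, no time after treatment and neither age nor sex of the mice. Each sample of a group came from a separate mouse, and from 4 mice both organs were measured.

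Glycolysis splits glucose into pyruvate in the cytoplasm and yields ATP without oxygen. Hexokinase traps glucose in the cell, phosphofructokinase commits it to the pathway, and lactate dehydrogenase turns the end product into lactate when it does not enter mitochondria. Most steps have several isoforms encoded by separate genes, whose mix differs between organs. The healthy proximal tubule of the kidney makes glucose rather than burning it and lives on fatty acids, while activated fibroblasts, macrophages and dividing cells are known for high glycolysis.

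The median raw signal per array was 95.2 to 125.1, and detection passed for 32.4% to 41.5% of its probes. Alveolar epithelium markers averaged 11.91 to 12.80 (log2 intensity) in the lungs and 5.27 to 6.46 in the kidneys, and proximal tubule markers 9.17 to 11.31 in the kidneys and 5.05 to 5.57 in the lungs, so each organ carried its own markers. Several lungs and the UUO kidneys also carried transcripts of other tissues. The alveolar marker Sftpc read 9.11 and 7.63 in UUO kidneys 1 and 2, against 4.36 to 4.56 in healthy kidneys. At an adjusted p under 0.05 (limma), 2 of the 7 alveolar markers were higher and 1 lower in UUO than in healthy kidney. Of all genes, 26.0% were higher and 16.9% lower there. The liver list averaged 8.20 to 9.10 in healthy and 6.85 to 6.96 in UUO kidneys, and its source there was not tested. All 8 measured liver markers were above background in healthy lung 3 (mean log2 intensity 12.43) and in UUO-mouse lung 1 (10.74), against 5.02 to 5.51 in the other healthy and UUO-mouse lungs. The muscle list averaged 12.04 in healthy lung 2, 9.81 in healthy lung 1 and 5.98 in healthy lung 3, and 7.41 to 8.20 in bleomycin lungs. Markers of kidney tubule segments beyond the proximal tubule averaged 6.88 in bleomycin lung 1 and 5.16 to 5.66 in the other lungs. Bleomycin lung 3 stood apart in sex-linked transcripts, with the X-inactivation transcript Xist at 8.91 and the Y-linked Eif2s3y at 4.42, against 4.31 to 5.52 and 9.29 to 9.66 in the other bleomycin lungs and the healthy lungs. The 2 arrays made from UUO-mouse lung 2, which were averaged, differed by 1.51 for Aldoa, 1.23 for Pfkl and 0.83 for Pgam1 on the log2 scale.

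Bleomycin lung carried more RNA of most of these enzymes than healthy lung. Against healthy lung, 5 of the 7 genes were higher (Hk1, Pfkp, Pgk1, Pgam1 and Ldha), 1 was lower (Pfkl) and Aldoa did not pass the test, at an adjusted p under 0.05 (limma, Benjamini-Hochberg over all genes). Of all genes tested, 21.3% were called higher and 21.8% lower in this comparison. The median change of the 7 was 0.91 on the log2 scale and that of all genes -0.04. Without bleomycin lung 1, or without both lungs with liver transcripts, 4 were higher and 1 lower, Ldha having lost its call. Without bleomycin lung 3, which stood apart in sex-linked transcripts, 5 were higher and 1 lower. In whole organs, more cells of a type and more RNA per cell cannot be told apart.

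Hk1 encodes the hexokinase that most tissues use for the entry step. Its log2 intensity was 5.30, 5.35 and 5.35 in the 3 healthy lungs and 6.40, 6.42 and 5.92 in the bleomycin lungs. All bleomycin lungs lay above all healthy lungs, and the change was 0.91 ± 0.23 (SE; 1.88-fold; adjusted p = 0.00635). The size of the change ran from 0.35 on uncorrected signals to 1.79 on the deposited matrix values, which differ in normalization too, with a call under all 30 alternatives run.

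The 2 phosphofructokinase genes moved in opposite directions. Pfkp, the platelet-type subunit, read 7.42, 7.35 and 7.45 in healthy lungs and 8.65, 8.42 and 8.88 in bleomycin lungs, a rise of 1.24 ± 0.27 (2.36-fold; adjusted p = 0.00304) with no overlap. Pfkl, the liver-type subunit, read 10.41, 10.23 and 10.20 in healthy lungs and 9.68, 8.73 and 9.92 in bleomycin lungs, and fell by 0.83 ± 0.24 (1.78-fold lower; adjusted p = 0.0133). The groups did not overlap, but bleomycin lung 2 was far below the other two of its group. Without it the fall was 0.48 (adjusted p = 0.0159). The call was lost with arrays scaled to their median (-0.47, adjusted p = 0.148), with the deposited matrix values (-0.28, adjusted p = 0.336) and when only these lungs were fitted (adjusted p = 0.0669).

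After the sugar is split, Pgk1 had the smallest adjusted p. Phosphoglycerate kinase, its product, carries out the first ATP-yielding step. Its log2 intensity was 9.89, 9.86 and 9.84 in healthy lungs and 11.08, 11.22 and 10.89 in bleomycin lungs, a change of 1.20 ± 0.14 (2.30-fold; adjusted p = 6.98e-05). Pgam1, the phosphoglycerate mutase of most non-muscle tissues, read 7.20, 7.50 and 8.06 against 8.73, 8.57 and 8.21, a change of 0.92 ± 0.24 (1.89-fold; adjusted p = 0.00929). The healthy lung with the highest Pgam1, number 3, was the lung with liver transcripts, and without it the change was 1.16 (adjusted p = 0.00269).

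Ldha, the lactate dehydrogenase subunit that favours lactate formation, changed least among the genes called. It read 11.95, 12.34 and 12.14 in healthy lungs and 12.59, 12.65 and 12.41 in bleomycin lungs. The groups did not overlap, and the change was 0.41 ± 0.15 (1.33-fold; adjusted p = 0.0486). This call was at the edge: it was lost under 14 of 30 alternatives, among them leaving out healthy lung 1 or 3, bleomycin lung 1 or 2, UUO-mouse lung 3 or any healthy kidney, with adjusted p-values up to 0.174. Aldoa, the main aldolase outside liver and brain, had no call at 0.07 (95% interval -0.35 to 0.50; adjusted p = 0.784), and was called higher only with the deposited matrix values (0.63; adjusted p = 0.0161), where the median of all genes was 0.51. Its healthy lungs spread from 10.99 to 11.65, with the highest value in the lung with the most muscle transcripts, while the bleomycin lungs lay between 11.31 and 11.38.

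**Figure D1:**
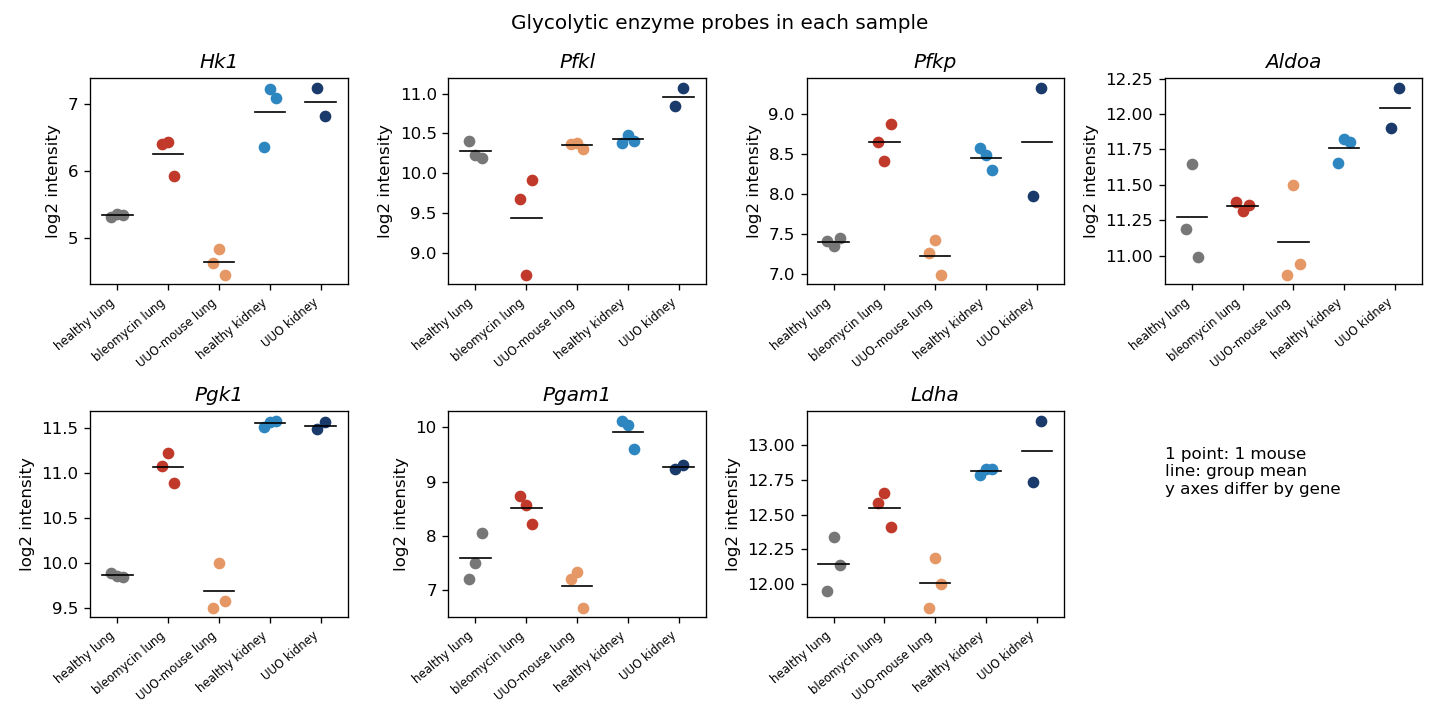
Log2 intensity of the probe that stands for each of the 7 genes, by group; points are mice, lines are group means, and each panel has its own scale. Bleomycin lungs lie above healthy lungs for Hk1, Pfkp, Pgk1, Pgam1 and Ldha and below them for Pfkl, and UUO kidneys 1 and 2 are far apart in Pfkp (7.98 and 9.33).

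Cell type markers moved with these changes. The 7 macrophage markers averaged 8.001 to 8.29 in healthy lungs and 9.22 to 9.54 in bleomycin lungs, and the 4 measured markers of dividing cells 5.69 to 5.77 and 8.05 to 8.34. Fibroblast markers averaged 8.51 to 8.87 and 9.36 to 10.10. Endothelial markers went from 10.37 to 10.51 in healthy lungs down to 9.53 to 9.58, and red blood cell markers from 12.53 to 12.79 down to 7.24 to 7.59. Their part in the enzyme changes was not tested. The bleomycin mice carry another style of animal number than the rest and their arrays had the highest median raw signals (123.6 to 125.1), so a difference in handling and the treatment cannot be told apart.

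The promoters of genes that rose are shown beside that of Pfkl, which fell, because hypoxia-inducible factors are known to act on several glycolytic promoters. RefSeq windows (build GRCm38.p6) were found for all 9 listed genes, and the 250 bases before the first listed start are read here. The letters searched were ACGTG and GCGTG on both strands, the known core of the hypoxia response element, and overlapping matches, as in the palindrome CACGTG, each count. Capitals mark the matches. The windows are Pgk1 at chrX:106186850-106187099 (plus strand, 2 matches), Ldha at chr7:46845554-46845803 (plus strand, 5 matches), Pgam1 at chr19:41911621-41911870 (plus strand, 3 matches) and Pfkl at chr10:78009808-78010057 (minus strand, 1 match).
Pgk1: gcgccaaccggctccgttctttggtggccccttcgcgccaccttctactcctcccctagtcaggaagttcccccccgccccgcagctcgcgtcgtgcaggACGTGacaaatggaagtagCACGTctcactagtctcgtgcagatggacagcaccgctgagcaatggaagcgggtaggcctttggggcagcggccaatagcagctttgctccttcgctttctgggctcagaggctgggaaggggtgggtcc
Ldha: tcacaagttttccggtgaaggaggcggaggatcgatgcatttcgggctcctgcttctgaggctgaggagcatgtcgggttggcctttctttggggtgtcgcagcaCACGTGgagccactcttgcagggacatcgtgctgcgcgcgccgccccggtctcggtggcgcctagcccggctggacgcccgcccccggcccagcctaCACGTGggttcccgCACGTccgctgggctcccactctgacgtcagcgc
Pgam1: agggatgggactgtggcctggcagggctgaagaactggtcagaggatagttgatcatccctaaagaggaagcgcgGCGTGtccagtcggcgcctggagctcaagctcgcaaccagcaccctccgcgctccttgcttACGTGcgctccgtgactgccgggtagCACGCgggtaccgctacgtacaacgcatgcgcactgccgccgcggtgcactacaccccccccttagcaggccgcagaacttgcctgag
Pfkl: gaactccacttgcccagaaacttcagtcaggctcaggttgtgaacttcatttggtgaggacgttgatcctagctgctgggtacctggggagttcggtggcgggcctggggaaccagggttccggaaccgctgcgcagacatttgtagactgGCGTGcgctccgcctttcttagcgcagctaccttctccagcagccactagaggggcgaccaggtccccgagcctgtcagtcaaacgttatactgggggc
Of the 9 listed genes, 7 held at least 1 match and 5 at least 2, where 38.6% of the 27025 genes with a window held at least 1 and 16.8% at least 2. Pfkp held 3, Hk2 2, Eno1 1, and Hk1 and Aldoa 0. The letters were thus present both in genes that rose and in Pfkl. A match is a description of these windows and not a bound site.

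Around the pathway in bleomycin lung, the counts below stand beside 21.3% of all genes called higher and 21.8% lower. Slc2a1, the glucose transporter of most cells, rose by 1.46 ± 0.27 (adjusted p = 0.00102), 1 of 11 measured glucose and lactate transporters to do so, while Slc2a8 (-0.74) and Bsg (-0.61), a chaperone of lactate transporters, fell. Of 19 measured hypoxia response genes outside glycolysis, 5 rose and 3 fell, which is near those shares. Hif1a, the oxygen-regulated factor itself, rose by 2.50 ± 0.43 (adjusted p = 0.000663) and Adm, which encodes the vessel-relaxing peptide adrenomedullin, by 1.38 ± 0.20 (adjusted p = 0.000262). P4ha1, a collagen prolyl hydroxylase subunit, fell by 1.75 ± 0.24 (adjusted p = 0.000163). Of 6 pentose phosphate genes 3 fell and 0 rose, with Rpia at -1.16 ± 0.20 (adjusted p = 0.00071) and Rpe at -0.66 ± 0.13 (adjusted p = 0.00145). Among 10 genes of pyruvate entry into mitochondria 3 rose and 2 fell: Pdk3, a kinase that blocks this entry, rose by 1.42 ± 0.18 (adjusted p = 0.000109) and Pdp2, a phosphatase that opens it, fell by 1.59 ± 0.35 (adjusted p = 0.00333). The 13 citric acid cycle genes were split, with 2 up and 3 down.

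Healthy kidney exceeded healthy lung in 6 of the 7 enzymes, with 29.8% of all genes called higher and 36.9% lower in kidney. This comparison shares the healthy lungs with the bleomycin comparison, so their values are not independent. The median change of the 7 was 1.05 against -0.14 for all genes. Pgam1 differed most, at 7.20, 7.50 and 8.06 in lung and 10.12, 10.04 and 9.61 in kidney, a change of 2.34 ± 0.24 (5.06-fold; adjusted p = 3.49e-06). Pgk1 read 11.51, 11.57 and 11.58 in kidney and was 1.69 ± 0.14 higher (3.22-fold; adjusted p = 5.64e-07). Hk1 read 6.35, 7.22 and 7.08 in kidney, 1.55 ± 0.23 above lung (2.93-fold; adjusted p = 6.14e-05). No kidney overlapped a lung in any of these.

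Differences in Pfkp (1.05 ± 0.27; adjusted p = 0.00431) and Ldha (0.67 ± 0.15; adjusted p = 0.00197) were smaller. Aldoa was 0.48 ± 0.19 higher in kidney (adjusted p = 0.0434), by 11.66, 11.82 and 11.80 against lungs of up to 11.65, so the groups barely separated. That call was lost under 13 of 30 alternatives, among them leaving out healthy lung 1 or 3, any bleomycin lung or any healthy kidney, with adjusted p-values up to 0.181. With the mouse as a fixed block, which uses the 3 mice that gave both organs, the adjusted p of Aldoa was 0.0955. Pfkl was at 0.15 (95% interval -0.37 to 0.66; adjusted p = 0.596).

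**Figure D2:**
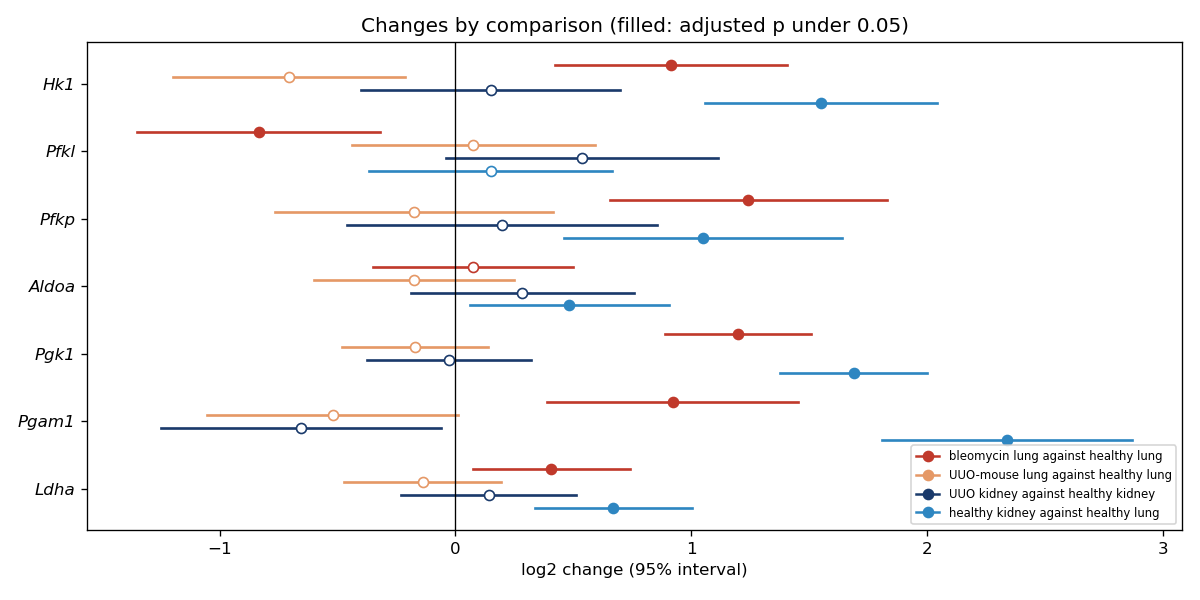
Log2 change of each of the 7 genes in 4 comparisons, with 95% intervals; filled points have an adjusted p under 0.05. Pgam1 in healthy kidney against healthy lung (2.34) lies farthest from 0, and no point is filled for UUO kidney or UUO-mouse lung.

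The other isoforms were split between the organs. Of the 19 other glycolytic genes listed, 13 were measured, and in healthy kidney 4 were higher and 6 lower than in healthy lung. These counts are near the shares over all genes, of which 29.8% were called higher and 36.9% lower. Higher were Tpi1 (1.87 ± 0.13), the triose phosphate isomerase, Aldoc (1.58 ± 0.19), the brain-type aldolase, Gapdh (1.44 ± 0.19) and Ldhb (1.28 ± 0.21), the lactate dehydrogenase subunit that favours pyruvate. Lower were Pkm (-0.74 ± 0.23), the pyruvate kinase, the enolases Eno2 (-1.72 ± 0.40) and Eno3 (-2.99 ± 0.66), and Hkdc1 (-0.91 ± 0.26) and Adpgk (-0.62 ± 0.14), which phosphorylate glucose. Hk3, a hexokinase of white blood cells, was at least 4.40-fold lower, because its probe was at background in every healthy kidney. Eno2 and Hkdc1 passed detection in no healthy kidney either, so their values there lay near background. Eno3, the muscle enolase, read 9.42, 10.89 and 7.29 in healthy lungs 1, 2 and 3, in the order of their muscle marker levels, whose part in it was not tested.

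The enzymes sat within a wider metabolic difference between the organs. The counts below stand beside 29.8% of all genes called higher and 36.9% lower in healthy kidney. All 13 measured citric acid cycle genes were higher in healthy kidney, led by Suclg2 (3.17 ± 0.21), Sdhc (1.78 ± 0.15), Sdhb (1.86 ± 0.20) and Fh1 (1.30 ± 0.14). Of 7 genes of gluconeogenesis and fructose metabolism 6 were higher and 0 lower, among them G6pc3 (2.18 ± 0.15) and G6pc (6.42 ± 1.02), which release free glucose. Both measured genes of phosphofructokinase control, Pfkfb2 (-1.37 ± 0.16) and Pfkfb4 (-1.56 ± 0.16), which set the level of its activator, were lower in kidney.

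In UUO kidney, none of the 7 enzymes passed the test by the probe that stands for the gene, where 26.0% of all genes were called higher and 16.9% lower than in healthy kidney. At an unadjusted p under 0.05 only Pgam1 would pass. Pgam1 read 10.12, 10.04 and 9.61 in healthy kidneys and 9.24 and 9.30 in UUO kidneys, without overlap, a difference of -0.66 ± 0.27 (adjusted p = 0.0705). It gained a call under 6 of 30 alternatives, among them leaving out healthy kidney 3 or healthy lung 3. Pfkl lay at 10.38, 10.49 and 10.41 against 10.85 and 11.07, also without overlap, at 0.54 ± 0.26 (adjusted p = 0.122), and gained a call under 3 alternatives, with an adjusted p of 0.00674 when bleomycin lung 2, whose Pfkl was low, no longer entered the pooled spread.

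Pfkp split the UUO kidneys, with 7.98 in kidney 1 and 9.33 in kidney 2 around healthy values of 8.31 to 8.57. Its change was 0.20 ± 0.30 (adjusted p = 0.642), 0.88 without UUO kidney 1 (adjusted p = 0.00706) and -0.48 without UUO kidney 2 (adjusted p = 0.113), so the direction rested on which kidney was kept. UUO kidney 2 also held more markers of neutrophils (mean log2 intensity 8.05 against 5.15 in kidney 1). Hk1 (0.15, 95% interval -0.40 to 0.70), Pgk1 (-0.03, -0.37 to 0.32), Aldoa (0.28, -0.19 to 0.76) and Ldha (0.14, -0.23 to 0.51) had intervals that include 0. With the deposited matrix values, whose median over all genes was shifted by -0.21, Pgam1 (-0.99), Pgk1 (-0.51) and Ldha (-0.46; adjusted p = 0.0492) were called lower. Of the 7, UUO kidney 2 gave the highest value of any kidney for Pfkl, Pfkp, Aldoa and Ldha.

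For 5 of the genes 2 probes were kept. In a fit of every probe as its own feature, the dimmer probe passed the test in UUO kidney for all 5, where 43.5% of 18022 probes were called in either direction. Among kidneys, the dimmer Hk1 and Pgk1 probes passed detection only in healthy ones, and the dimmer Pgam1 and Pfkl probes only in UUO ones. The filter thus favoured the side where each was high, and the count of 5 is no support of its own. The dimmer Hk1 probe, annotated to another accession than the first, read 6.04, 6.21 and 6.22 in healthy kidneys and was at background in UUO kidneys (4.49 and 4.93), at least 2.17-fold lower (adjusted p = 2.89e-05). The dimmer Pgk1 probe read 6.51, 5.78 and 6.08 and was also at background in UUO kidneys, at least 2.11-fold lower (adjusted p = 0.00402). The dimmer Pfkp probe went from 7.08, 7.03 and 6.74 to 5.50 and 6.55, a fall of 0.92 ± 0.28 (adjusted p = 0.0165).

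In the other direction, the dimmer Pgam1 probe read 4.95, 5.67 and 5.20 in healthy kidneys and 5.97 and 5.91 in UUO kidneys, a rise of 0.67 ± 0.24 (adjusted p = 0.0376), opposite in sign to the brighter Pgam1 probe. The dimmer Pfkl probe was at background in healthy kidneys and at least 1.22-fold higher in UUO kidneys (adjusted p = 0.000647). Which part of a transcript each probe covers was not analysed here, and signals this near background are compressed. In bleomycin lung both probes of Hk1, Pfkp, Pgk1 and Pgam1 rose, and 43.8% of probes were called in that comparison. There the dimmer probes of Hk1, Pgk1 and Pgam1 were at background in healthy lung and at least 1.47-fold, 1.35-fold and 1.47-fold higher in bleomycin lung. These probes passed the detection filter only through bleomycin lungs and kidneys, where they were high. They are thus no independent support for a difference from healthy lung. The dimmer Pfkl probe had no call in bleomycin lung (-0.16; adjusted p = 0.369). Between the healthy organs, where 65.9% of probes were called, both probes of Hk1, Pfkp and Pgk1 were higher in kidney, by at least 2.35-fold for the dimmer Hk1 probe and at least 2.29-fold for the dimmer Pgk1 probe, which were at background in lung. The dimmer Pgam1 probe, also at background in lung, had no call (adjusted p = 0.0931). The dimmer Pfkl probe was called lower in kidney (adjusted p = 0.0182), where it was at background, and no fold can be given.

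**Figure D3:**
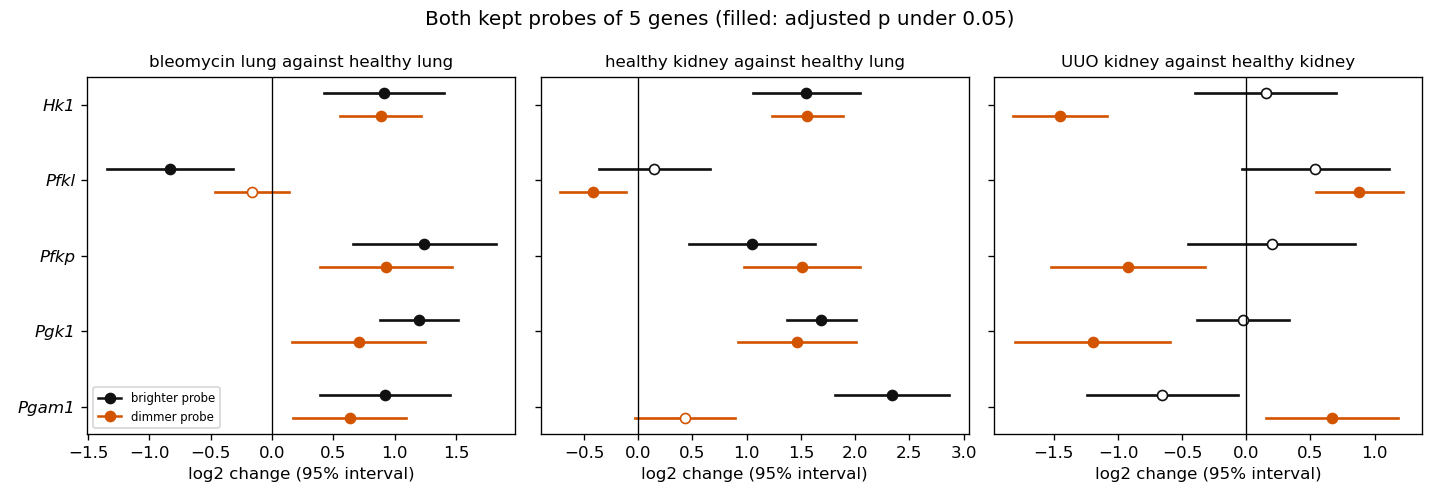
Log2 change with 95% interval of the brighter and the dimmer kept probe of 5 genes in 3 comparisons, from the fit with every probe a feature; probes at background in a group are drawn at their measured values, and filled points have an adjusted p under 0.05. The pairs lie together in bleomycin lung for Hk1, Pfkp, Pgk1 and Pgam1 and apart in UUO kidney for Hk1, Pfkp, Pgk1 and Pgam1.

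Some of the other isoforms rose in UUO kidney. Of the 13 measured, 6 were higher, 0 were lower and 7 did not pass the test against healthy kidney, where 26.0% of all genes were called higher. Eno2, the neuronal enolase, read 5.35, 4.47 and 5.46 in healthy kidneys and 7.26 and 8.63 in UUO kidneys, a rise of 2.85 ± 0.45 (adjusted p = 0.000335). Pkm read 10.53, 10.48 and 10.66 against 11.68 and 12.66, a rise of 1.62 ± 0.25 (adjusted p = 0.00034). Both were higher in kidney 2 than in kidney 1. No healthy kidney passed detection for Eno2 (detection p of 0.0449, 0.509 and 0.016), and signals this near background are compressed.

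Hkdc1 rose by 1.55 ± 0.29 (adjusted p = 0.0011), Ldhb by 0.87 ± 0.23 (adjusted p = 0.00919) and Adpgk by 0.53 ± 0.16 (adjusted p = 0.0167). Hk3 was at least 2.11-fold higher (adjusted p = 0.00103), with 5.63 in kidney 1 and 7.01 in kidney 2. Macrophage markers averaged 6.25 to 6.66 in healthy and 8.28 to 8.59 in UUO kidneys, markers of dividing cells 5.76 to 6.33 and 7.16 to 8.25, fibroblast markers 6.36 to 6.88 and 8.61 to 8.86, and proximal tubule markers 11.17 to 11.31 and 9.17 to 10.51, and their part in these changes was not tested. In bleomycin lung, 2 of the 13 other isoforms were higher, 1 was lower and the rest had no call. These are smaller shares than over all genes, of which 21.3% were called higher and 21.8% lower. Pkm (0.97 ± 0.23; adjusted p = 0.00471) and Gapdh (0.78 ± 0.19; adjusted p = 0.00593) rose there and Pfkm, the muscle-type phosphofructokinase, fell by 1.61 ± 0.37 (adjusted p = 0.00407). Pfkm read 10.41, 11.24 and 9.80 in healthy lungs 1, 2 and 3, in the order of their muscle marker levels, and 8.72 to 8.995 in bleomycin lungs, and the part of muscle transcripts in this was not tested.

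**Figure D4:**
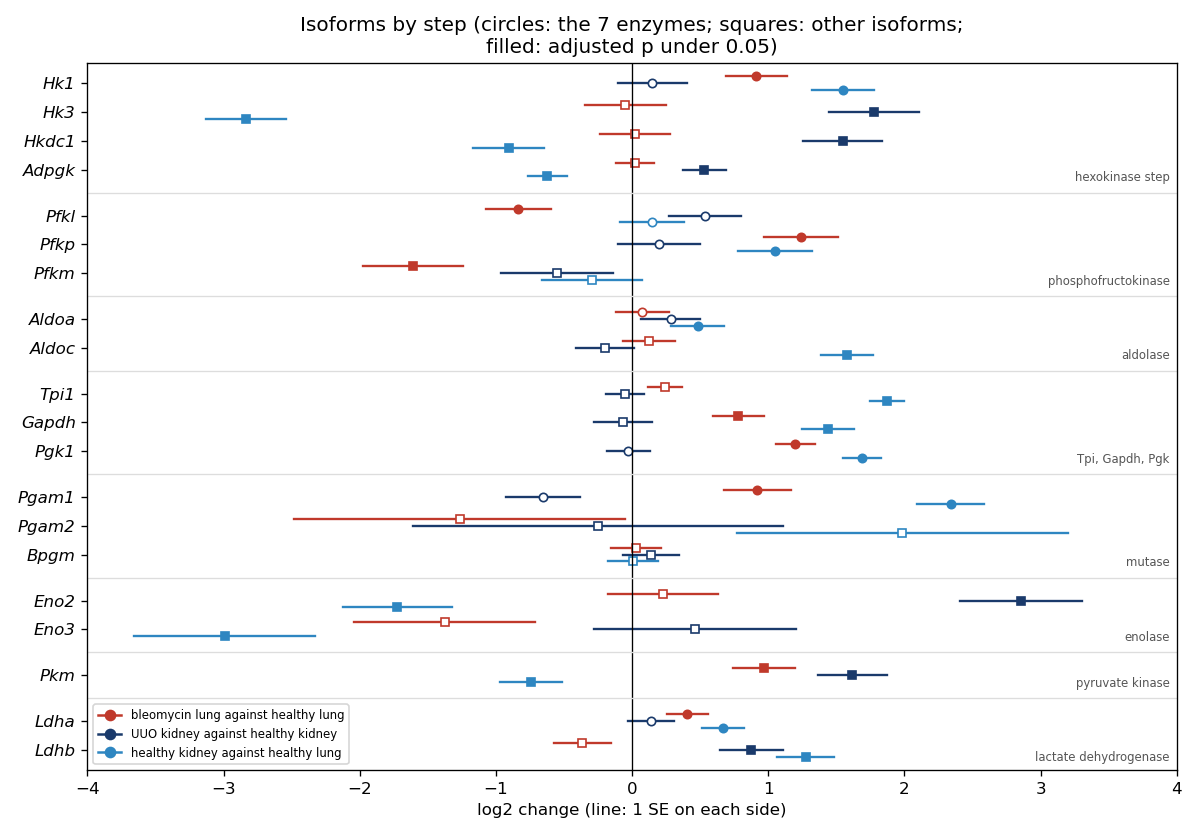
Log2 change of the measured glycolytic genes in 3 comparisons, grouped by the step of the pathway; lines span 1 SE on each side, circles are the 7 enzymes followed here, squares are the other isoforms and filled symbols have an adjusted p under 0.05. In UUO kidney only squares are filled (Hk3, Hkdc1, Adpgk, Eno2, Pkm and Ldhb).

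In the neighbouring pathways in UUO kidney, the counts below stand beside 26.0% of all genes called higher and 16.9% lower. Of 7 gluconeogenesis and fructose genes 4 fell and 1 rose, with G6pc3 at -1.29 ± 0.17 (adjusted p = 9.65e-05), Pcx, the pyruvate carboxylase, at -1.46 ± 0.37 (adjusted p = 0.00729) and Fbp2, the muscle fructose bisphosphatase, at 1.03 ± 0.24 (adjusted p = 0.00471). Of 13 citric acid cycle genes 5 fell and 0 rose, among them Sdhc (-0.67 ± 0.16) and Sdhd (-0.92 ± 0.23), subunits of succinate dehydrogenase. Of 10 genes of pyruvate entry into mitochondria 4 fell and 1 rose, with a median change of -0.71 against 0.12 for all genes. The falls were in Pdk3 (-1.44 ± 0.20; adjusted p = 0.000155), Pdhb (-1.63 ± 0.33; adjusted p = 0.00176), a subunit of pyruvate dehydrogenase, Pdp2 (-1.63 ± 0.39; adjusted p = 0.00531) and Pdk2 (-1.24 ± 0.31; adjusted p = 0.0061). The gene that rose was Pdk4 (2.32 ± 0.80; adjusted p = 0.0339), a kinase that blocks this entry, named here after its value was seen. Of 11 transporters 3 rose and 4 fell, with Slc2a6 up by 2.26 ± 0.53 (adjusted p = 0.00482) while Slc16a4 fell by 2.45 ± 0.23 (adjusted p = 9.45e-06). Of 19 hypoxia response genes 4 rose and 2 fell, a smaller share than over all genes in both directions, the latter Car9 (-1.66 ± 0.25) and Egln1 (-1.29 ± 0.25). Of 6 pentose phosphate genes 2 rose and 0 fell, H6pd by 1.16 ± 0.22 and Rpe by 0.55 ± 0.14.

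The effects of bleomycin in the lung and of UUO in the kidney were then compared within the same fit. The change in lung minus that in kidney was 1.23 ± 0.21 for Pgk1 (adjusted p = 0.000698) and 1.58 ± 0.37 for Pgam1 (adjusted p = 0.00421). For Pfkl it was -1.37 ± 0.35 (adjusted p = 0.00787). Pgam1 changed by 0.92 in the lung and, without a call, by -0.66 in the kidney. Pfkl changed by -0.83 in the lung and, without a call, by 0.54 in the kidney. Of all genes, 17.9% were called higher and 27.1% lower in this difference. Hk1 (0.76; adjusted p = 0.0848) and Pfkp (1.04; adjusted p = 0.0532) did not pass, nor did Aldoa (-0.21) or Ldha (0.27). Pfkp gained a call under 6 of 30 alternatives, among them the animal as a random block (adjusted p = 0.0462), every probe a feature (adjusted p = 0.0492) and leaving out UUO kidney 2 (1.72; adjusted p = 0.000502). Hk1 gained one under 3, which were leaving out bleomycin lung 3 (adjusted p = 0.0449) or healthy kidney 1 (adjusted p = 0.0121) and the deposited matrix values. With the matrix values all of the 7 but Pfkl were called higher. The Pfkl difference was lost with the deposited matrix values (-0.45, adjusted p = 0.31). By the dimmer probes, in the fit where 47.2% of probes were called, the difference was 1.85 ± 0.37 (adjusted p = 0.00143) for Pfkp. The other dimmer probes were at background in 1 or 2 of the 4 groups, so only the call is given. The difference was called above 0 for Hk1 (adjusted p = 9.55e-06) and Pgk1 (adjusted p = 0.00129) and below 0 for Pfkl (adjusted p = 0.00145). Pgam1 had no call (adjusted p = 0.938). Among the other isoforms Gapdh had the larger change in lung (0.85 ± 0.29) and Hk3, Hkdc1, Eno2 and Ldhb had the larger change in kidney (Eno2 -2.63 ± 0.60; Ldhb -1.24 ± 0.31).

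The lung of UUO mice was compared with healthy lung to ask whether a scarred kidney goes with a change in the lung. None of the 7 enzymes passed the test, where 5.81% of all genes were called higher and 5.05% lower, and none of the 13 other isoforms did. Hk1 came closest. It read 4.62, 4.83 and 4.44 and its probe was at background in every UUO-mouse lung, against 5.30 to 5.35 in healthy lung, at least 1.23-fold lower (adjusted p = 0.065). Only Hk1 had an unadjusted p under 0.05, and it gained a call with array weights, with only these lungs fitted or without healthy kidney 1.

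Pgam1 lay at 7.20, 7.33 and 6.67 in UUO-mouse lungs, overlapping healthy lung (-0.52, 95% interval -1.05 to 0.01; adjusted p = 0.184). It gained a call as lower under 1 of 30 alternatives, with arrays scaled to their median (adjusted p = 0.0413). Pgk1 (-0.17, -0.48 to 0.14), Ldha (-0.14, -0.47 to 0.19), Pfkp (-0.18, -0.76 to 0.41) and Aldoa (-0.18, -0.60 to 0.25) were slightly lower and Pfkl (0.08, -0.44 to 0.59) slightly higher, none past the test. In the fit with every probe a feature, where 11.8% of probes were called, 0 of the 12 probes passed. The values of lung 2 are means of its 2 arrays. By the probe that stands for each gene, the gap between these arrays was wider than the difference from healthy lung for Aldoa and Pfkl. The same held for Pgam1 (gap 0.83), Ldha (0.75), Pgk1 (0.68) and Pfkp (0.20), and for Hk1 the gap was narrower. Of 4 measured sex-linked transcripts, 1 was higher and 2 were lower in UUO-mouse lung than in healthy lung, and 1 was higher and 3 were lower in UUO than in healthy kidney, so sex and surgery cannot be told apart.

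**Figure D5:**
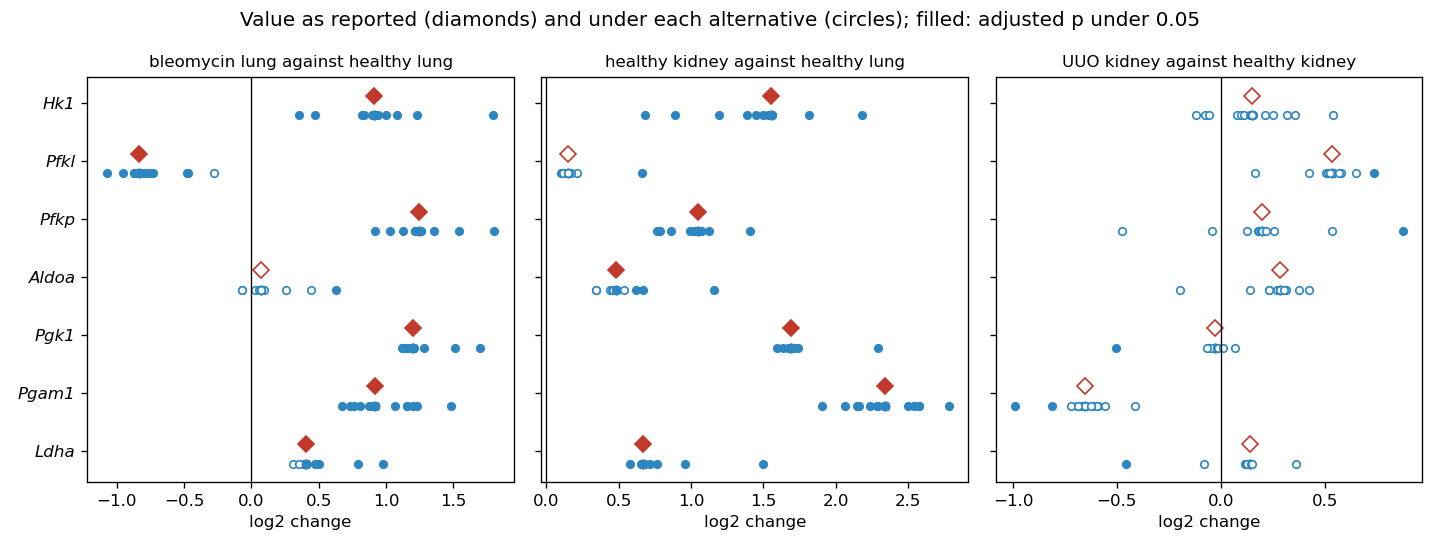
Log2 change of the 7 genes in 3 comparisons, as reported (diamonds) and under the 30 alternative settings (circles); filled symbols have an adjusted p under 0.05. Pgk1 is filled throughout in bleomycin lung and in healthy kidney against healthy lung, while several circles of Ldha in bleomycin lung are open.

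Across the 5 groups, the order of the levels was alike for several of the genes, by the probe that stands for each gene. UUO-mouse lung was the lowest group and healthy lung the next for Hk1, Pfkp, Aldoa, Pgk1, Pgam1 and Ldha, and no difference between these neighbours passed the test. The top places were held by the kidneys for all but Pfkp, where bleomycin lung (mean 8.65) lay between UUO (8.66) and healthy kidney (8.46). Pfkl had its own order, from 10.96 in UUO kidney over 10.42, 10.35 and 10.28 in healthy kidney, UUO-mouse lung and healthy lung to 9.44 in bleomycin lung. For Pfkl, neither UUO-mouse lung nor healthy kidney differed from healthy lung past the test. The dimmer probes gave other orders. By them bleomycin lung lay above UUO kidney for Hk1 (5.48 and 4.71), Pgk1 (5.36 and 4.93) and Pfkp (6.37 and 6.03). By the dimmer Pgam1 probe, bleomycin lung (5.48) lay above healthy kidney (5.27), and healthy lung was the lowest group.

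The genes whose 5 group means, centred on their own average, came closest to a member were found by the root mean square difference on the log2 scale. Closest to Ldha were Stip1 (0.024), Bend3 (0.037) and Psmc3 (0.040), and to Aldoa Errfi1 (0.045), Rnaset2b (0.051) and Minpp1 (0.056). Pgk1 was matched by Dph1 (0.076), Rab11fip5 (0.11) and Pdgfc (0.12), and Pfkp by Eif4e2 (0.076), Ece2 (0.11) and Rab3il1 (0.12). Pfkl lay nearest to Ovca2 (0.091), Limd1 (0.092) and Faap100 (0.092). Pgam1 had as nearest Sdhb (0.18), Igsf5 (0.18) and Cyba (0.19), and Hk1 had Igsf5 (0.18), Cd63 (0.18) and Fam20c (0.19). No other enzyme of the set was among the nearest 3 of a member.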

How the data were processed

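Per the labels' protocols, total RNA was made into biotinylated cRNA for Illumina arrays. The deposited non-normalized table gives a signal intensity and a detection p-value per probe and array, from GenomeStudio 5.0 per the submitters' processing notes; the deposited matrix holds background-subtracted intensities on a linear scale, used as an alternative after a floor of 16. The export settings are not stated. Genes were named by the platform annotation: of 45281 probes, 34885 had 1 symbol, 18 several and 10378 none.

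Signals were background corrected and quantile normalized with neqc of limma 3.58.1 (R 4.3.3; offset 16, negative controls inferred from detection p), which gives log2 intensities. Probes that passed detection (p under 0.01) in 2 or more samples were kept (21048; 18022 with 1 gene), and the brightest stood for each of 11648 genes. The 15 arrays were 14 samples. For 1 healthy kidney the tissue field reads lung; it was grouped by title and source. A model of 5 group means was fitted by limma with eBayes (9 residual and 3.06 prior degrees of freedom), so the spread is pooled over the groups, and Benjamini-Hochberg adjustment ran over all genes, with a threshold of 0.05. Where no sample of a group had a detection p below 0.05, the fold is a bound (at least N-fold): the brighter group's mean against the dim group's, in which an array enters with its lowest probe above background unless the probe itself reads more. The number of arrays limits the precision. The fit was tested on simulated data.

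Replicate numbers were checked for pairing: deviations from group means correlated at -0.122 to 0.185 for organs of the same mouse and at -0.565 to 0.169 for equal numbers of different mice, so the numbers were not used as pairs.

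The genes, the lists and the tests were chosen with earlier results of these data known. The rule for names took the listed enzymes, any other glycolytic isoform, up to 4 genes per other list with the smallest adjusted p among those called, and the 3 genes with the most similar group means.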

Additional observations from a re-analysis of the deposited data

Results flagged for a closer look

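For 3 genes the effect of bleomycin in the lung differed from that of UUO in the kidney by the test of the difference itself. Pfkl differed by -1.37 (log2; adjusted p = 0.00787), Pgk1 by 1.23 (adjusted p = 0.000698) and Pgam1 by 1.58 (adjusted p = 0.00421), from limma over all genes. The Pfkl call was lost with the deposited matrix values (adjusted p = 0.31). In the limma fit of every probe, the dimmer Pgam1 probe had no call (adjusted p = 0.938). The dimmer Pfkl and Pgk1 probes were called in the same direction as the brighter ones, but the changes behind these calls differed. The dimmer Pgk1 probe was called lower in UUO kidney, where the brighter one had no call (-0.03). The dimmer Pfkl probe had no call in bleomycin lung, where the brighter one was called lower (-0.83). The dimmer Pgk1 probe was at background in healthy lung and UUO kidney, and the dimmer Pfkl probe in healthy kidney. The organ and the kind of injury differ together in this contrast and cannot be told apart. Xist read 10.72 and 10.44 in UUO kidneys and 4.39 to 4.71 in healthy kidneys. Eif2s3y read 4.39 and 4.38 against 8.94 to 9.29. Sex, and a possible difference in handling of the bleomycin mice, thus cannot be told apart from these effects either.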

How the results depend on the processing

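Of 1050 single-gene values under the alternatives, 973 kept their direction and call, 31 lost and 27 gained a call, and 19 changed sign. Hk1, Pfkp, Pgk1 and Pgam1 stayed called in bleomycin lung, and these with Ldha in healthy kidney against lung, under all 30 alternatives run. With every probe a feature, 18022 probes were tested instead of 11648 genes. The calls were 7896 for bleomycin lung, 2119 for UUO-mouse lung, 7847 for UUO kidney, 11871 for kidney against lung and 8500 for the difference of effects. The shares called were, in that order, 43.8%, 11.8%, 43.5%, 65.9% and 47.2%, against 43.1%, 10.9%, 43%, 66.6% and 45% over genes. UUO-mouse lung against healthy lung had 1265 calls, 2924 with array weights, 345 without both lungs with liver transcripts and 307 to 1664 with a sample left out (307 without UUO-mouse lung 3, 481 without healthy lung 1, 525 without healthy lung 3, 671 without UUO-mouse lung 1, 839 without healthy lung 2).

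Sign changes, of genes with no call in the reported fit, were as follows. With arrays scaled to their median, Pfkl was -0.25 in UUO-mouse lung, Pgk1 0.066 in UUO kidney and Aldoa 0.068 in the difference of effects. With the deposited matrix values, Pfkl was -0.035 in UUO-mouse lung, Hk1 -0.076, Pfkp -0.044, Aldoa -0.19 and Ldha -0.46 in UUO kidney, and Aldoa 0.82 in the difference. With array 1 or array 2 alone for UUO-mouse lung 2, Aldoa was 0.076 and Pfkl -0.13 in that comparison. Without both lungs with liver transcripts, Aldoa was -0.069 in bleomycin lung. With a sample left out, values ran from -0.069 to 0.26 for Aldoa in bleomycin lung, from -0.37 to 0.012 for Aldoa in UUO-mouse lung, and in UUO kidney from -0.12 to 0.36 for Hk1, from -0.48 to 0.88 for Pfkp, from -0.067 to 0.013 for Pgk1 and from -0.079 to 0.36 for Ldha. The causes were not tested.

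The share of calls that were higher moved with the scaling. It was 49.5% in bleomycin lung, 75.1% with median scaling and 87.1% with the matrix values, and 53.5%, 3.29% and 15.9% in UUO-mouse lung. In UUO kidney it was 60.6%, 78% and 34.6%, in kidney against lung 44.7%, 35.8% and 64.7%, and in the difference 39.8%, 42.6% and 84.2%. The median of all genes in bleomycin lung was -0.04, 0.24 and 0.51 under these scalings. With the replicate block the calls were 4855 in bleomycin lung, 940 in UUO-mouse lung, 4718 in UUO kidney, 7703 in kidney against lung and 5048 in the difference, and it changed no call of the 7 enzymes. The numbers do not pair the mice.

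Groups of 2 or 3 mice, pooled spread, dim second probes and transcripts of other tissues in some lungs and kidneys limit what can be read from these values. Protein and metabolite levels were not analysed here.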

Other observations

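Eno1b, an enolase gene outside the list that was picked after its values were seen, read 4.79, 5.13 and 4.91 in healthy lungs and 6.65, 6.39 and 5.69 in bleomycin lungs, a rise of 1.30 ± 0.30 (limma, adjusted p = 0.00429). In healthy kidneys it read 6.75, 6.90 and 5.80, which is 1.54 ± 0.30 above healthy lung (adjusted p = 0.000631). No healthy lung passed detection for Eno1b (detection p of 0.0705, 0.0192 and 0.0556), and signals this near background are compressed. Its probe passed the filter only through bleomycin lungs and kidneys, where it was high. Whether its probe also takes up Eno1 RNA was not tested.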
